A study of Homo sapiens with 20 samples.

Results

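Type III and type IV intermediate filaments were described in lung cancer cell lines with and without decitabine (DAC), a cytidine-like drug that traps DNA methyltransferases and so lowers DNA methylation as cells divide. The genes were chosen by symbol, as the rows of the expression table named VIM, DES, GFAP and PRPH (4 genes of type III) and NES, NEFL, NEFM, NEFH, INA and SYNM (6 genes of type IV), which makes 10 of the 36076 genes in that table. All 10 were found, and all 10 reached a mean FPKM of 0.1 over the 10 libraries of the 5-line comparison, the limit for testing. GFAP reached it only through the DAC arm, with a mean of 0.0363 FPKM in Mock and 0.196 after DAC. FPKM is a fragment number scaled to transcript length and library size, so that it can be compared between genes of different length.

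mRNA-seq was carried out in A549, CL1-0, CL1-5, PC9, H1299 and H1792, and Omni-ATAC-seq, which reads open chromatin by the insertions of a transposase, in A549, CL1-5, PC9 and H1299. Each line has 1 library per arm and assay, 12 for mRNA and 8 for chromatin. The Mock arm received PBS, and the DAC arm received 100 nM decitabine for 72 hours and then grew for 3 days without drug. All are established lung cancer lines with no genetic change made for the experiment, and CL1-5 is a more invasive subline of CL1-0. Cell lines are the replicates of the treatment, and within a line no replicate error exists. Since each library is a bulk culture, more cells that express a gene and more RNA per cell cannot be told apart.

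Intermediate filaments are rope-like polymers of the cytoplasm and nucleus whose subunits follow the origin of the cell. Vimentin (VIM) is the filament of mesenchymal cells and of many invasive carcinoma cells, desmin (DES) that of muscle, glial fibrillary acidic protein (GFAP) that of astrocytes, and peripherin (PRPH) that of peripheral neurons. Among the type IV proteins, NEFL, NEFM and NEFH are the light, medium and heavy neurofilament subunits, alpha-internexin (INA) joins them in neurons, nestin (NES) is the filament of neural and muscle progenitors, and synemin (SYNM) links desmin or vimentin filaments to other structures. Simple epithelia, from which lung adenocarcinoma arises, are built instead on the keratins KRT8 and KRT18.

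In 10 of the 12 mRNA libraries between 22234485 and 25303899 reads were counted on genes. The H1299 libraries held 59735913 reads in Mock and 52634234 after DAC, and 85.5% and 81.9% of their genes with 1 to 20 reads had an even number, against 39.2% to 41.5% elsewhere, so their reads were halved for counting intervals. The libraries labelled CL1-0 nearly lacked the keratins of the labelled tissue, with KRT8 at 0.154 FPKM in Mock and 1.05 after DAC and KRT18 at 0.118 and 0.924. In the other lines KRT8 in Mock ranged from 37.8 FPKM in H1299 to 1578 in A549. Of the peak lists, those labelled CL1-5 and PC9 carried open promoters of the opposite line. Of 143 genes at 5 FPKM or more in PC9 Mock and under 0.1 in CL1-5 Mock, 92.3% had a promoter peak in the Mock list labelled CL1-5 and 51.7% in that labelled PC9, and of 80 genes the other way round, 62.5% and 87.5% did. These lists are therefore called by their labels, and the peak counts are also given without them.

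Among the 10 genes VIM was the most abundant in 10 of 12 libraries. In Mock its level was 481 FPKM in H1299, 353 in CL1-5, 343 in H1792, 126 in A549, 122 in CL1-0 and 4.77 in PC9. The lines thus spanned 101-fold, with PC9 alone under 5 FPKM, and the pairs closest in level, CL1-5 with H1792 (95% counting interval 1.02 to 1.04) and A549 with CL1-0 (1.01 to 1.06), were each 1.03-fold apart. Counting intervals cover counting error only, since each is from 1 library. VIM differed between lines beyond the spread left after line and treatment (limma F test over 12 libraries, adjusted p = 6.11e-05).

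The 3 neurofilament mRNAs were highest in CL1-0. NEFL stood at 119 FPKM there in Mock, next to VIM at 122, and at 7.24 in A549, 5.79 in CL1-5, 0.412 in H1299, 0.140 in H1792 and 0 in PC9. PC9 had 0 reads of NEFL in both arms, where 3 reads would be 0.0333 FPKM in Mock and 0.0299 after DAC. NEFM, the medium subunit, reached 23.2 FPKM in CL1-0, 1.71 in H1792, 0.674 in CL1-5, 0.0746 in A549, 0.0479 in H1299 and 0 in PC9. The same line was highest for both, yet the second line was not the same. NEFH, the heavy subunit, was spread over 3 lines, with 19.8 FPKM in CL1-0, 16.5 in H1299 and 8.38 in PC9, and was at 6 reads or fewer in CL1-5, H1792 and A549. A549 and CL1-5 therefore expressed the light subunit with almost no heavy subunit, and PC9 the heavy subunit with neither of the other two. NEFL had the smallest adjusted p of the 10 genes between lines (limma, 1.02e-06), with NEFM at 3.40e-05 and NEFH at 4.94e-04.

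INA, the neuronal partner of the neurofilaments, was the second most abundant of the 10 genes in H1299 and A549 and the first in PC9 in Mock. Its Mock level was 26.1 FPKM in H1299, 20.1 in PC9, 10.2 in A549, 4.99 in CL1-5, 1.23 in CL1-0 and 0.0125 (1 read) in H1792. Each neighbour in that order differed beyond its counting interval. CL1-0, the line with most NEFL, was thus next to last for INA, and over the 12 libraries the correlation of INA with NEFL was 0.03 (Pearson, on log2(FPKM + 0.1)), given as a description since the 2 libraries of a line are not independent. PRPH and NEFL had the highest correlation of any pair of the 10 genes (0.93).

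NES in Mock was 22.3 FPKM in H1792, 8.22 in PC9, 0.724 in CL1-0, 0.647 in A549, 0.352 in H1299 and 0.119 (18 reads) in CL1-5. H1792 and PC9 thus carried the progenitor filament and 4 lines were under 1 FPKM, among which CL1-0 and A549 did not differ beyond counting error (1.12-fold, 95% interval 0.820 to 1.53). SYNM had the smallest span of the 5 genes with reads in all 6 Mock libraries, with 7.57 FPKM in A549, 7.53 in H1792, 4.80 in H1299, 1.78 in CL1-0, 1.63 in CL1-5 and 1.58 in PC9, a span of 4.79-fold. Its levels formed a high pair, A549 and H1792, and a low trio, CL1-0, CL1-5 and PC9, within each of which neighbours did not differ beyond counting error.

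The muscle, glial and peripheral neuronal filaments were close to the detection limit. DES was at 0.987 FPKM (139 reads) in H1299, between 0.0195 and 0.103 (1 to 6 reads) in A549, CL1-0, CL1-5 and PC9, and at 0 in H1792. GFAP lay between 0 and 0.0920 FPKM (0 to 12 reads) in Mock in all 6 lines. PRPH was highest in CL1-0 at 0.808 FPKM (83 reads), followed by 0.375 in A549, 0.331 in CL1-5, 0.141 in H1299, 0.0278 in H1792 and 0 in PC9. For DES the neighbours below H1299, and for GFAP all neighbours in the order, were within counting error of each other.

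**Figure D1:**
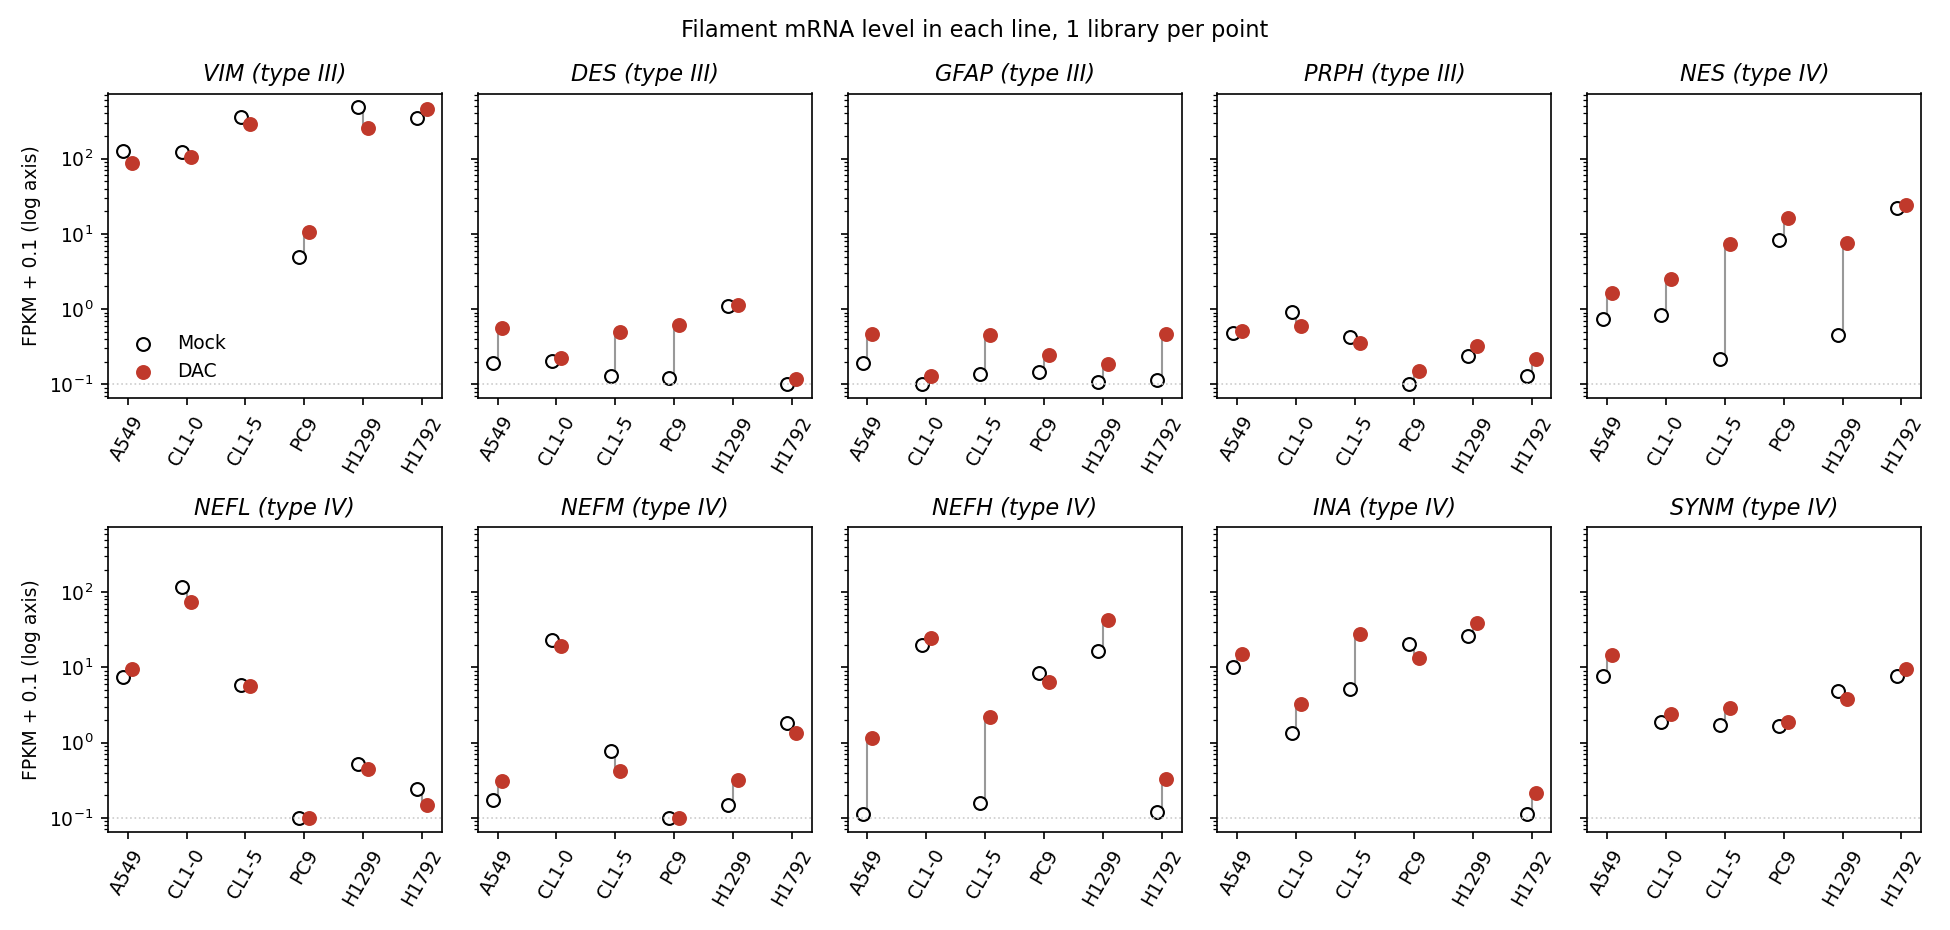
FPKM + 0.1 of each gene on a log axis against cell line, with an open circle for Mock and a filled red circle for DAC, 1 library each. VIM is above 80 FPKM in 5 lines and between 4.77 and 10.6 in PC9, NEFL and NEFM peak in CL1-0, and the largest distances between arms are those of NES in CL1-5 and H1299 and of NEFH in A549 and CL1-5.

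Between lines, 9 of the 10 genes passed an adjusted p of 0.05 in limma's F test, beside 78.4% of the 22814 genes tested in the 12 libraries. GFAP did not pass (adjusted p = 0.126). DES passed at 0.0181 and no longer did without H1299 (adjusted p = 0.241), and NES passed at 0.0171 and no longer did without H1792 (adjusted p = 0.0634). The share of the 10 genes that passed is read against that background, in which most genes tested passed too. Passing does not give the size of a difference, and the 2 libraries of a line in this test are its Mock and DAC arms.

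As a share of the summed FPKM of the 10 genes, VIM made up 96.3% in CL1-5 Mock, 91.5% in H1792, 90.7% in H1299, 82.8% in A549, 42.4% in CL1-0 and 11.1% in PC9. The 9 others summed to 13.7 FPKM in CL1-5 and 167 in CL1-0, the lowest and the highest of the Mock libraries. After DAC the VIM share was lower in A549 (67.4%), CL1-5 (86.2%) and H1299 (73.1%) and higher in CL1-0 (45.7%), PC9 (21.7%) and H1792 (92.8%). The sum of the 9 others went from 13.7 to 46.8 FPKM in CL1-5 (3.43-fold), from 49.4 to 94.1 in H1299 (1.90-fold) and from 26.3 to 42.7 in A549 (1.62-fold), from 167 to 126 in CL1-0 (0.755-fold), and stayed within 0.995-fold in PC9 and 1.13-fold in H1792. In PC9 the leading filament mRNA was INA in Mock and NES after DAC.

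**Figure D2:**
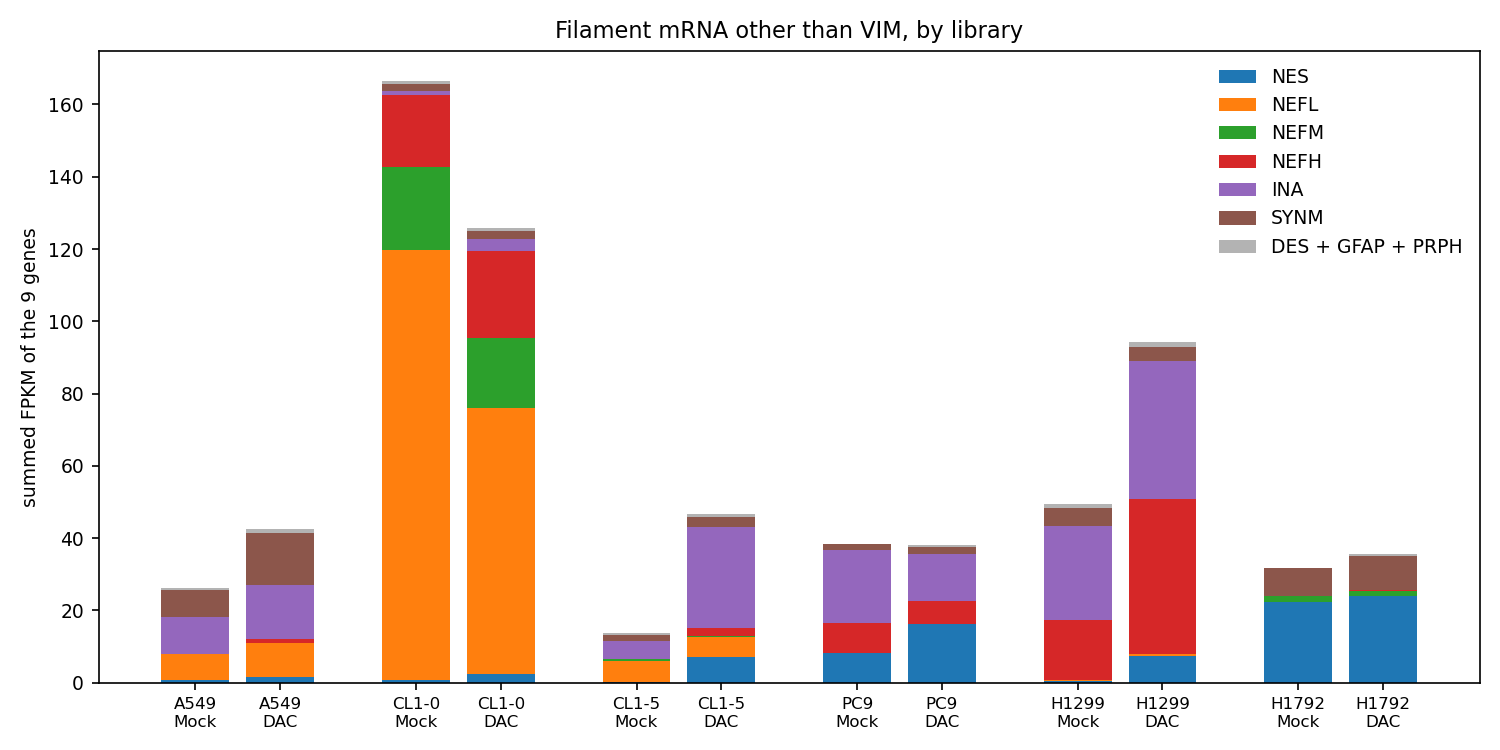
Summed FPKM of the 9 genes other than VIM in each of the 12 libraries, stacked by gene, on a linear axis from 0. CL1-0 is led by NEFL in both arms, PC9 by INA in Mock and NES after DAC, H1299 by INA in Mock and NEFH after DAC, H1792 by NES, and the CL1-5 bar goes from 13.7 FPKM in Mock to 46.8 after DAC, mostly by INA and NES.

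Whether DAC altered these filaments was asked over the 5 lines other than H1792, with the line as a block. None of the 10 genes passed an adjusted p of 0.05 (limma on log2(FPKM + 0.1)), a threshold that 27 of 22603 genes (0.119%) passed upward and 0 downward. At an unadjusted p under 0.05, 4 of the 10 genes were higher after DAC (NES, GFAP, DES and NEFH), beside 8.07% of all genes tested, and 0 were lower, beside 4.4%. A limma voom fit on the reads, with those of H1299 not halved, called 199 genes upward and 0 downward, among them 1 of the 10, GFAP. In that fit the median log2 fold change was 0.67 over the 10 genes and 0.17 over all genes, and 69.0% of all genes had a value above 0. Since GFAP passed the filter only through its DAC libraries, its calls are not independent of that filter. In the main fit, on log2(FPKM + 0.1), the median fitted log2 fold change was 0.60 over the 10 genes and 0.07 over all genes tested. Of the 10 genes 8 had a value above 0 there, beside 58.8% of all genes. After quantile normalization 6 of the 10 did, beside 44.9% of all genes. Rescaling to a common sum put the median of all genes at 0.17 and quantile normalization at -0.04, and the median of the 10 genes at 0.73 and 0.42.

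NES had the largest fitted difference, 2.57 ± 0.63 on the log2 scale (SE, 5 lines, limma unadjusted p = 0.00415, adjusted p = 0.231). Its FPKM in Mock and after DAC was 0.119 and 7.13 in CL1-5 (18 and 963 reads), 0.352 and 7.53 in H1299, 0.724 and 2.42 in CL1-0, 0.647 and 1.53 in A549, and 8.22 and 16.3 in PC9. In H1792, the line with most NES, it was 22.3 and 24.1. NES was higher in all 6 lines, and the lines that started lowest, CL1-5 and H1299, had the largest ratios, 59.7-fold (95% counting interval 37.6 to 101) and 21.4-fold (16.3 to 28.5). Of the 16 fits run in all, the one reported and 15 alternatives, NES was at an unadjusted p under 0.05 in 16, the only one of the 10 genes of which this held. Its adjusted p was never under 0.133.

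NEFH had a fitted difference of 1.68 ± 0.62 (limma unadjusted p = 0.0290, adjusted p = 0.349). The heavy subunit went from 1 read to 101 in A549 (0.0123 to 1.06 FPKM) and from 6 to 192 in CL1-5 (0.0585 to 2.09 FPKM). In H1299 it was 16.5 FPKM in Mock and 42.7 after DAC, in CL1-0 19.8 and 24.3, and in PC9 8.38 and 6.22. The 2 lines of the 5 with almost no NEFH in Mock thus had it after DAC, whereas PC9, which expressed it, had less. H1792 had 2 and 21 reads. For NEFH, A549 in Mock had 1 read, so its ratio of 85.6 has a counting interval from 15.0 to 3413.

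DES, the muscle filament, had a fitted difference of 1.20 ± 0.40 (limma unadjusted p = 0.0180, adjusted p = 0.321). Its reads in Mock and after DAC were 5 and 29 in A549, 2 and 24 in CL1-5, 1 and 29 in PC9, 6 and 9 in CL1-0, and 139 and 133 in H1299. The 3 lines with the larger difference reached 0.401 to 0.508 FPKM, below the 0.987 that H1299 had without drug. GFAP, the astrocyte filament, had a fitted difference of 0.98 ± 0.27 (limma unadjusted p = 0.00801, adjusted p = 0.278), and in the limma voom fit on reads 2.72 ± 0.40 (adjusted p = 0.0260). Its reads were 12 and 56 in A549, 6 and 53 in CL1-5, 6 and 20 in PC9, 2 and 28 in H1299, 0 and 5 in CL1-0, and 2 and 54 in H1792. Even after DAC it was at most 0.370 FPKM. DES, GFAP and NES were the 3 of the 10 genes higher in 5 of 5 lines, beside 6.76% of all genes tested. Of these, GFAP was tested only because of its level after DAC.

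INA had a fitted difference of 0.85 ± 0.38 (limma unadjusted p = 0.0603, adjusted p = 0.417). Its Mock and DAC levels were 4.99 and 27.9 FPKM in CL1-5, 1.23 and 3.21 in CL1-0, 26.1 and 38.4 in H1299, 10.2 and 14.8 in A549, and 20.1 and 13.1 in PC9. INA was thus higher in 4 lines and lower in PC9, as was NEFH. In H1792 it had 1 and 9 reads. The fitted difference of INA was 0.45 without CL1-5 and 1.22 without PC9 (limma unadjusted p = 0.181 and 0.00971, adjusted p = 0.521 and 0.392). SYNM had a difference of 0.36 ± 0.20 (limma adjusted p = 0.485), with the largest ratio in A549 (7.57 and 14.4 FPKM) and a lower value in H1299 (4.80 and 3.66).

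VIM, the mesenchymal filament, had a fitted difference of -0.16 ± 0.28 (limma unadjusted p = 0.589, adjusted p = 0.823). Without and with DAC it stood at 481 and 255 FPKM in H1299, 353 and 292 in CL1-5, 126 and 88.2 in A549, 122 and 106 in CL1-0, and 4.77 and 10.6 in PC9. VIM was lower in H1299, CL1-5, A549 and CL1-0 and 2.22-fold higher in PC9 (95% counting interval 2.0 to 2.47). In H1792, outside the fit, VIM was also abundant and was higher after DAC, at 343 and 463 FPKM. The fitted difference was -0.03 after rescaling to a common sum and -0.01 after quantile normalization. Without PC9 the fitted difference was -0.48 (limma unadjusted p = 0.0494, adjusted p = 0.501), the 1 fit of the 16 in which any of the 10 genes was lower at an unadjusted p under 0.05, and without H1299 it was 0.03.

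NEFL had a fitted difference of -0.11 ± 0.17 (limma adjusted p = 0.784) and NEFM of 0.16 ± 0.32 (adjusted p = 0.850). In CL1-0, where both are abundant, NEFL was 119 FPKM in Mock and 73.7 after DAC and NEFM 23.2 and 19.2. NEFL was 7.24 and 9.38 in A549 and 5.79 and 5.58 in CL1-5. NEFM had 80 and 34 reads in CL1-5 and 12 and 51 in H1299. Both stayed at 0 reads in PC9 after DAC. The 3 subunits thus had different values in the same lines: where NEFH went from almost none to over 1 FPKM, in A549 and CL1-5, NEFL stayed within 1.29-fold and 0.965-fold. PRPH had a fitted difference of 0.05 ± 0.25 (limma adjusted p = 0.949), and after quantile normalization PRPH and NEFM were at -0.34 and -0.18. PRPH was counted with 83 reads in Mock and 64 after DAC in CL1-0 and 0 and 5 in PC9.

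**Figure D3:**
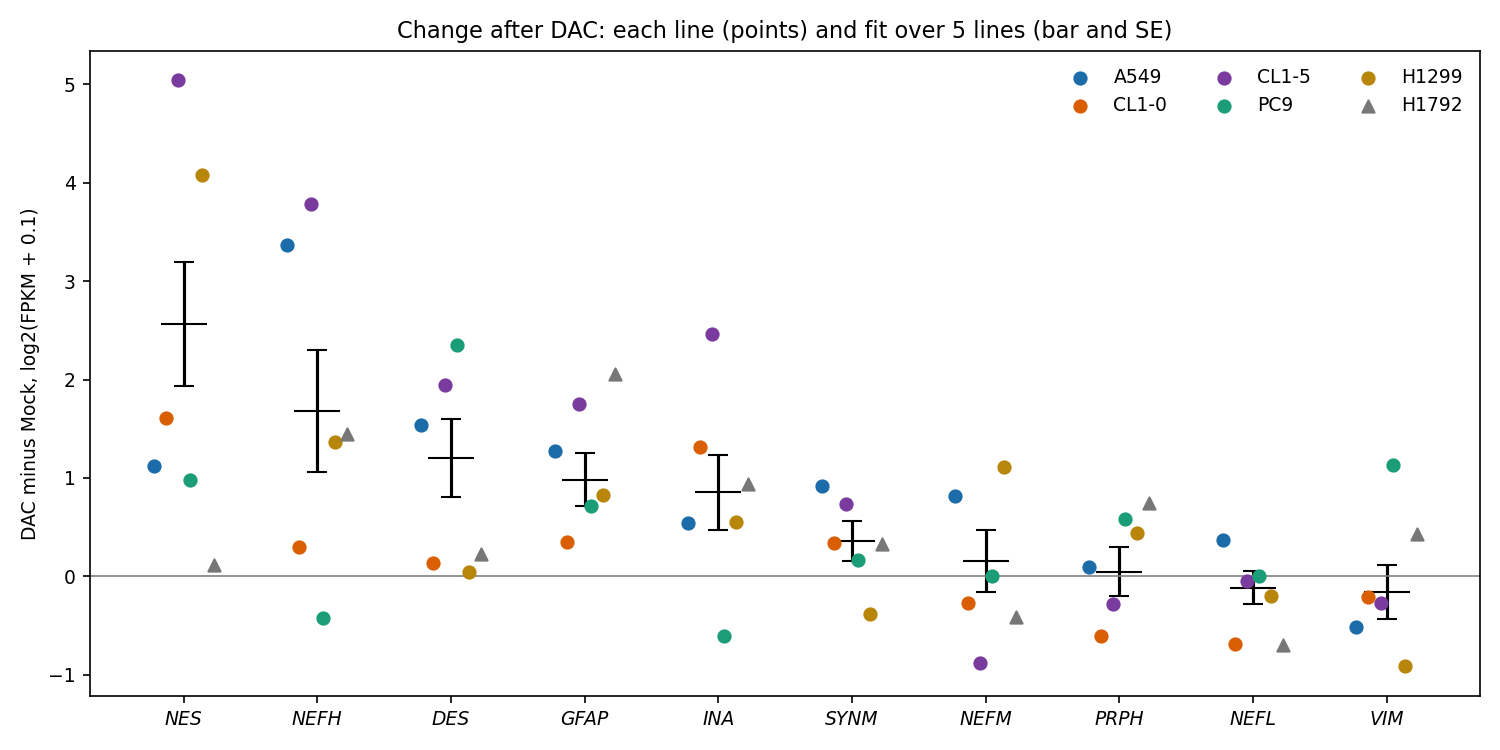
Difference between DAC and Mock on log2(FPKM + 0.1) for each gene, with a point for each line, the limma estimate over 5 lines as a horizontal bar and its SE as whiskers, and H1792, outside the fit, as a triangle. The genes are ordered by estimate, from NES at 2.57 to VIM at -0.16, and the CL1-5 point is the highest of the 5 lines for NES, NEFH, GFAP and INA.

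Counted line by line, with 1 library per arm and so no test, 18 of the 60 pairs of gene and line were at least 2-fold higher after DAC on the log2(FPKM + 0.1) scale and 0 were at least 2-fold lower. CL1-5 had 5 such genes (DES, GFAP, NES, NEFH and INA), beside 7.25% of all genes tested in that line. A549 had 4 (DES, GFAP, NES and NEFH), beside 15.5%, and H1299 had 3 (NES, NEFM and NEFH), beside 8.18%. CL1-0 had 2 (NES and INA), beside 7.6%, PC9 had 2 (VIM and DES), beside 10.2%, and H1792 had 2 (GFAP and NEFH), beside 10.3%. The shares of all genes at least 2-fold lower were 5.79% in H1792, 5.05% in CL1-5, 2.14% in CL1-0, 6.69% in A549, 3.15% in H1299 and 3.1% in PC9. The set of genes differed from line to line, NES and NEFH being the most frequent with 4 lines each. With a pseudocount of 1, which discounts the low genes, 7 pairs were at least 2-fold higher and 0 lower, and with 0.01 there were 26 higher and 2 lower, NEFM in CL1-5 (80 and 34 reads) and NEFL in H1792 (15 and 5 reads). The shares of all genes were counted with a pseudocount of 0.1 only, so these counts have no background beside them.

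The other genes of these systems were counted from lists chosen beside the 10 genes, in none of which limma voom on reads called a gene (0 in each). Of 14 filament partners, which anchor, cross-link or fold filaments, 0 passed an adjusted p of 0.05 (limma) and 3 were higher at an unadjusted p under 0.05, with a median of 0.44. The partner with the largest difference was EVPL (1.85), an envelope plakin, the lowest was PLEC (-0.06), the main cross-linker of vimentin, and the most abundant was the chaperone HSPB1, with 263 FPKM in CL1-0 Mock. Of the keratins, lamins and lens filaments, 8 were tested, and 0 passed at either level in either direction, with a median of 0.25. Among them KRT19 had the highest value (1.40) and LMNA the lowest (-0.32). BFSP2 had 3 reads or fewer in each library.

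Mesenchymal and epithelial genes both had medians above 0. Of 8 mesenchymal genes 0 passed the adjusted threshold, 2 were higher at an unadjusted p and the median was 0.13, between SPARC at 2.21 and TWIST1 at -0.21. Of 8 epithelial genes 0 passed, 3 were higher at an unadjusted p and the median was 0.39, between CLDN7 at 2.33 and ESRP1 at -0.11. PC9, the line with least VIM, had the most EPCAM, at 235 FPKM in Mock, and H1792 the most CDH2, at 165.

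Markers of the lineages in which these filaments are known were mixed. Of the fibroblast markers 5 were tested, 0 passed the adjusted threshold (limma) and 4 were higher at an unadjusted p, with a median of 1.24 and THY1 at 1.81. Of the muscle markers 9 were tested, 2 were higher and 1 lower at an unadjusted p, with a median of 0.28, CKM at 2.66 and TNNT1 at -0.59. Of the muscle factors not tested, MYOD1 had 3 reads or fewer in each library. MYOG and MYF6 were at 0 in H1299 Mock and at 0.248 and 0.103 FPKM there after DAC, with at most 20 and 8 reads in any library. ACTA1, the skeletal muscle actin, was at 160 FPKM in H1299 Mock, the line with most DES, and at 0.296 FPKM or less in Mock in the other lines. Of the neuronal markers 10 were tested, 2 were higher and 1 lower at an unadjusted p, with a median of 0.10, the adhesion protein L1CAM at 1.64 and the vesicle protein SYP at -0.74. Of 7 neural regulators tested 1 was higher, with a median of 0.17, RCOR1 at 0.56 and POU3F2 at -0.34. SOX2, a neural progenitor factor, was at 47.7 FPKM in CL1-0 Mock, the line with most NEFL. Of 4 glial markers tested 0 passed at either level, with a median of -0.08, SLC1A3 at 0.38, OLIG2 at -0.45 and at most 8.92 FPKM for MBP. Of the leukocyte markers, CD14 had a fitted difference of 0.38, and CD3E had 3 reads or fewer in each library. The summed FPKM of the fibroblast list ranged from 0.279 to 102 in Mock and from 2.80 to 155 after DAC, that of the muscle list from 4.95 to 218 and from 15.6 to 281, that of the neuronal list from 140 to 608 and from 168 to 515, and that of the glial list from 2.07 to 9.37 and from 1.38 to 8.71. Their part in the filament values was not tested.

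The genes whose level followed a member most closely over the 12 libraries were ranked by Pearson correlation on log2(FPKM + 0.1) among the 12280 genes whose mean FPKM was 1 or more. For VIM they were C8orf88 (0.97), HTRA2 (0.96) and LIX1L (0.96), and for NES CLEC2L (0.94), SLC12A8 (0.92) and DEF6 (0.89). For NEFL they were BTNL9, RIMS4 and C5orf38 (0.96 each), and for NEFM SHISA3 (0.98), OGFRL1 (0.96) and FAM171B (0.94). For NEFH they were NR6A1, NEURL1 and PLAGL2 (0.92 each), for INA USP43, FOXE1 and ELOVL7 (0.92 to 0.93), and for SYNM SMAD2, GRAMD1A and TNFRSF10B (0.94 to 0.95). NEFL and NEFM shared none of these, and the points are 2 libraries of each of 6 lines. The antisense gene VIM-AS1, which overlaps the start of VIM and whose reads cannot be told apart from it where strand was not used in counting, was between 0.304 and 2.62 FPKM in Mock, with a fitted difference of 0.05 (limma adjusted p = 0.926). NT5C2, next to INA, had 0.22 (adjusted p = 0.530).

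Promoter accessibility was read from the peaks listed for each gene within 3000 bp of the transcript start that the lists give with the peak. For NEFM, 15 of 19 listed peaks used the same start and the rest a start further in. Each other gene had 1 start. A peak's fold enrichment is its pileup over the local background of its own library, so values were compared between arms only by their rank within a list. VIM, PRPH, INA and SYNM had such a peak in all 8 lists, GFAP in 0 of 8, and the other 5 genes in some. Positions are those of the peak lists in hg19, the same build as GRCh37, from which the gene models were taken. Distances are counted from the start used for most peaks of a gene, which can differ from the outer limit of the gene model given here.

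The start of SYNM (chr15:99638420-99675798, plus strand, with the transcript used by the lists beginning further in) and that of INA (chr10:105036895-105050103, plus strand) carried the most regular peaks. The SYNM peak lay over its start in 8 of 8 lists, with fold enrichments of 5.01 to 6.53 and between 54.3% and 65.4% of its bases in coding sequence. The INA peak reached over its start in 2 of 4 Mock lists and 4 of 4 DAC lists, with fold enrichments of 3.74 to 5.47. VIM (chr10:17270240-17279592, plus strand) had a broad peak of 1265 to 2426 bp from its start into the gene. Its fold enrichment in Mock and after DAC was 7.91 and 4.67 in H1299, 6.52 and 6.06 in the library labelled PC9, 4.65 and 4.43 in A549, and 4.18 and 3.54 in that labelled CL1-5. It was thus lower after DAC in 4 of 4 pairs, but all lists had a lower median enrichment after DAC, and as a percentile of 15413 ranked genes it went from 80.1 to 52.7 in H1299, from 36.7 to 36.3 in A549, from 38.9 to 36.4 in the pair labelled CL1-5 and from 62.7 to 66.6 in that labelled PC9. H1299 was also the line with the lowest ratio of VIM mRNA, 0.530-fold.

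The 250 bases before the RefSeq start are shown for 4 genes that differ in level, change and peak, with every CpG, the dinucleotide on which DNA methyltransferases act, in capitals. Of the 10 genes, 5 are in the RefSeq promoter table of GRCh38.p14 that was used (VIM, NES, INA, PRPH and SYNM), and DES, GFAP, NEFL, NEFM and NEFH are named only. Each window matched GRCh37 at 1 place, that of VIM at chr10:17269990-17270239 (plus strand), that of NES at chr1:156647200-156647449 (minus strand), that of INA at chr10:105036645-105036894 (plus strand) and that of PRPH at chr12:49688680-49688929 (plus strand).
VIM: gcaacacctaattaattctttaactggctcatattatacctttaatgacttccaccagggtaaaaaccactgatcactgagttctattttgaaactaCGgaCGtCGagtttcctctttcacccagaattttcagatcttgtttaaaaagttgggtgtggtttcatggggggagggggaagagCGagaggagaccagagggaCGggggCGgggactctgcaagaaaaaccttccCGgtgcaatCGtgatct
NES: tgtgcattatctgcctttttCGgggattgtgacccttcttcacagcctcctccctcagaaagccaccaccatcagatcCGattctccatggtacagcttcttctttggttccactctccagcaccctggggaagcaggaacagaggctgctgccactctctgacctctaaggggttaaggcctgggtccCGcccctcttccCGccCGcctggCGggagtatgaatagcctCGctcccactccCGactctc
INA: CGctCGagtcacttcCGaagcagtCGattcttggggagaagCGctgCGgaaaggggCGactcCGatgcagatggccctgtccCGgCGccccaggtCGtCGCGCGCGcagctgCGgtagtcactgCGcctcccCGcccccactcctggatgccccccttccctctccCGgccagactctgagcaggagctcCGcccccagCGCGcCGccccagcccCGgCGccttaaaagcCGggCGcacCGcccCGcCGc
PRPH: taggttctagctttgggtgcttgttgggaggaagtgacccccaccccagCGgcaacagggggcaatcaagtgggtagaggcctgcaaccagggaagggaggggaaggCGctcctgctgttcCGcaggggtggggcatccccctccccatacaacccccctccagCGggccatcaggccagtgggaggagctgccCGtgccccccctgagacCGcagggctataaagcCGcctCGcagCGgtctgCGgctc

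These windows hold 8, 8, 30 and 10 CpG, and that of SYNM (chr15:99645036-99645285, plus strand) holds 34. Among 35116 such windows, whose median is 11.0, this puts SYNM at the percentile 93.7, INA at 88.4, PRPH at 48.8, and VIM and NES at 44.8. The CpG-rich windows of SYNM and INA overlapped a peak in 8 and 6 of the 8 lists, those of VIM and NES in 2 each, and that of PRPH in 0. The motif GGGCGG, on either strand, occurs 4 times in the SYNM window, 4 in INA, 2 in NES, 1 in VIM and 0 in PRPH, and 42.6% of all windows hold it. The motif TATAAA, on either strand, occurs in PRPH alone of the 5, where it begins 31 bases before the start, and 10.7% of all windows hold it. These matches describe the letters only.

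NES (chr1:156638555-156647199, minus strand) had a peak in the window in 3 of 4 Mock lists and 4 of 4 DAC lists. In the libraries labelled CL1-5 the peak covered the start in both arms, with fold enrichments of 3.24 in Mock and 2.55 after DAC. In H1299 the listed peaks began 822 bp inside the gene in both arms (2.85 and 2.43), although NES mRNA there went from 0.352 to 7.53 FPKM. A549 had no peak in Mock and 2 after DAC, one of them upstream of the start at chr1:156647815-156648068 (3.49). The library labelled PC9 had a peak at nearly the same upstream place after DAC, chr1:156647803-156648046 (2.37), and none there in Mock. The stretch these upstream peaks share, chr1:156647815-156648046 in GRCh37, lies 626 to 857 bp before the start and is shown on the strand of the gene because it was listed only after DAC, with its 8 CpG in capitals.
NES upstream: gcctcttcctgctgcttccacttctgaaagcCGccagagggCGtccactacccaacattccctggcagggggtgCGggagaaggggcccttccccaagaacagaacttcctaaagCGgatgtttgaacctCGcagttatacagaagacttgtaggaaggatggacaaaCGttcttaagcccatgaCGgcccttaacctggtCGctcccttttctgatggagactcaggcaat

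DES (chr2:220283099-220291457, plus strand) had 0 promoter peaks in the 4 Mock lists and 3 in the 4 DAC lists. In the DAC libraries labelled CL1-5 and PC9 the peak had the same limits, chr2:220282976-220283716, and covered the start, with fold enrichments of 2.91 and 3.53. In A549 after DAC it lay at chr2:220281616-220281877, ending at position -1222 from the start (2.89). H1299, with the most DES mRNA in both arms, had none in either list. With peaks placed within 1000 bp of any annotated transcript start of DES, the numbers were 2 of 4 Mock and 4 of 4 DAC lists, the added peaks lying 7125 to 7656 bp into the gene, near the start of a short transcript at its end. The -log10 q-values of the 3 promoter peaks after DAC were 1.54 in A549, 1.60 in the library labelled CL1-5 and 3.39 in that labelled PC9.

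The neurofilament genes were the least uniform. NEFL (chr8:24808468-24814235, minus strand) had a promoter peak in A549 and in the libraries labelled PC9 in both arms, in H1299 only in Mock, and none in those labelled CL1-5. NEFM (chr8:24771271-24776611, plus strand) had a fold enrichment of 7.83 in A549 Mock and 9.87 after DAC, the latter the highest listed for any of the 10 genes, while its mRNA there was 0.0746 and 0.208 FPKM. These peaks lay inside the gene, at the start further in. Counted from the start used for most NEFM peaks, they spanned 919 to 1440 bp in Mock and 885 to 1300 bp after DAC. Over that start itself A549 had a peak only after DAC (2.97). NEFM had a peak in H1299 only after DAC (3.48) and none in the libraries labelled CL1-5. NEFH (chr22:29876207-29887379, plus strand) had a peak in A549, H1299 and the libraries labelled CL1-5, in both arms, and none in those labelled PC9. In A549 the NEFH peak ended at position -1271 in Mock and began 567 bp past the start after DAC, where 100% of it was coding sequence.

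Against the mRNA of the line on the label, these peaks ran the other way. NEFL and NEFM had 0 reads in PC9 and were expressed in CL1-5, and the peaks were in the libraries labelled PC9 and not in those labelled CL1-5. NEFH was at 8.38 FPKM in PC9 and 0.0585 in CL1-5, and the peak was in the libraries labelled CL1-5. The peak over the start of NES was in the libraries labelled CL1-5 too, where the mRNA of the line so named was 0.119 FPKM in Mock, against 8.22 in PC9.

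PRPH (chr12:49688930-49692469, plus strand) had its peak not at the start but in the gene, beginning 1336 to 1530 bp after the start in all 8 lists (2.80 to 4.72). A second peak, upstream by 1137 to 1935 bp, was listed in 4 of 4 DAC lists and 1 of 4 Mock lists, with fold enrichments of 2.06 to 2.95. GFAP (chr17:42980527-42994305, minus strand) had peaks inside the gene and upstream of it but none within the window of the start used. Counted within 1000 bp of any of its 31 annotated transcript starts, a peak was present in 4 of 4 Mock and 3 of 4 DAC lists. The strongest of them, in an exon 3914 bp from the start, had a fold enrichment of 8.40 in A549 after DAC.

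**Figure D4:**
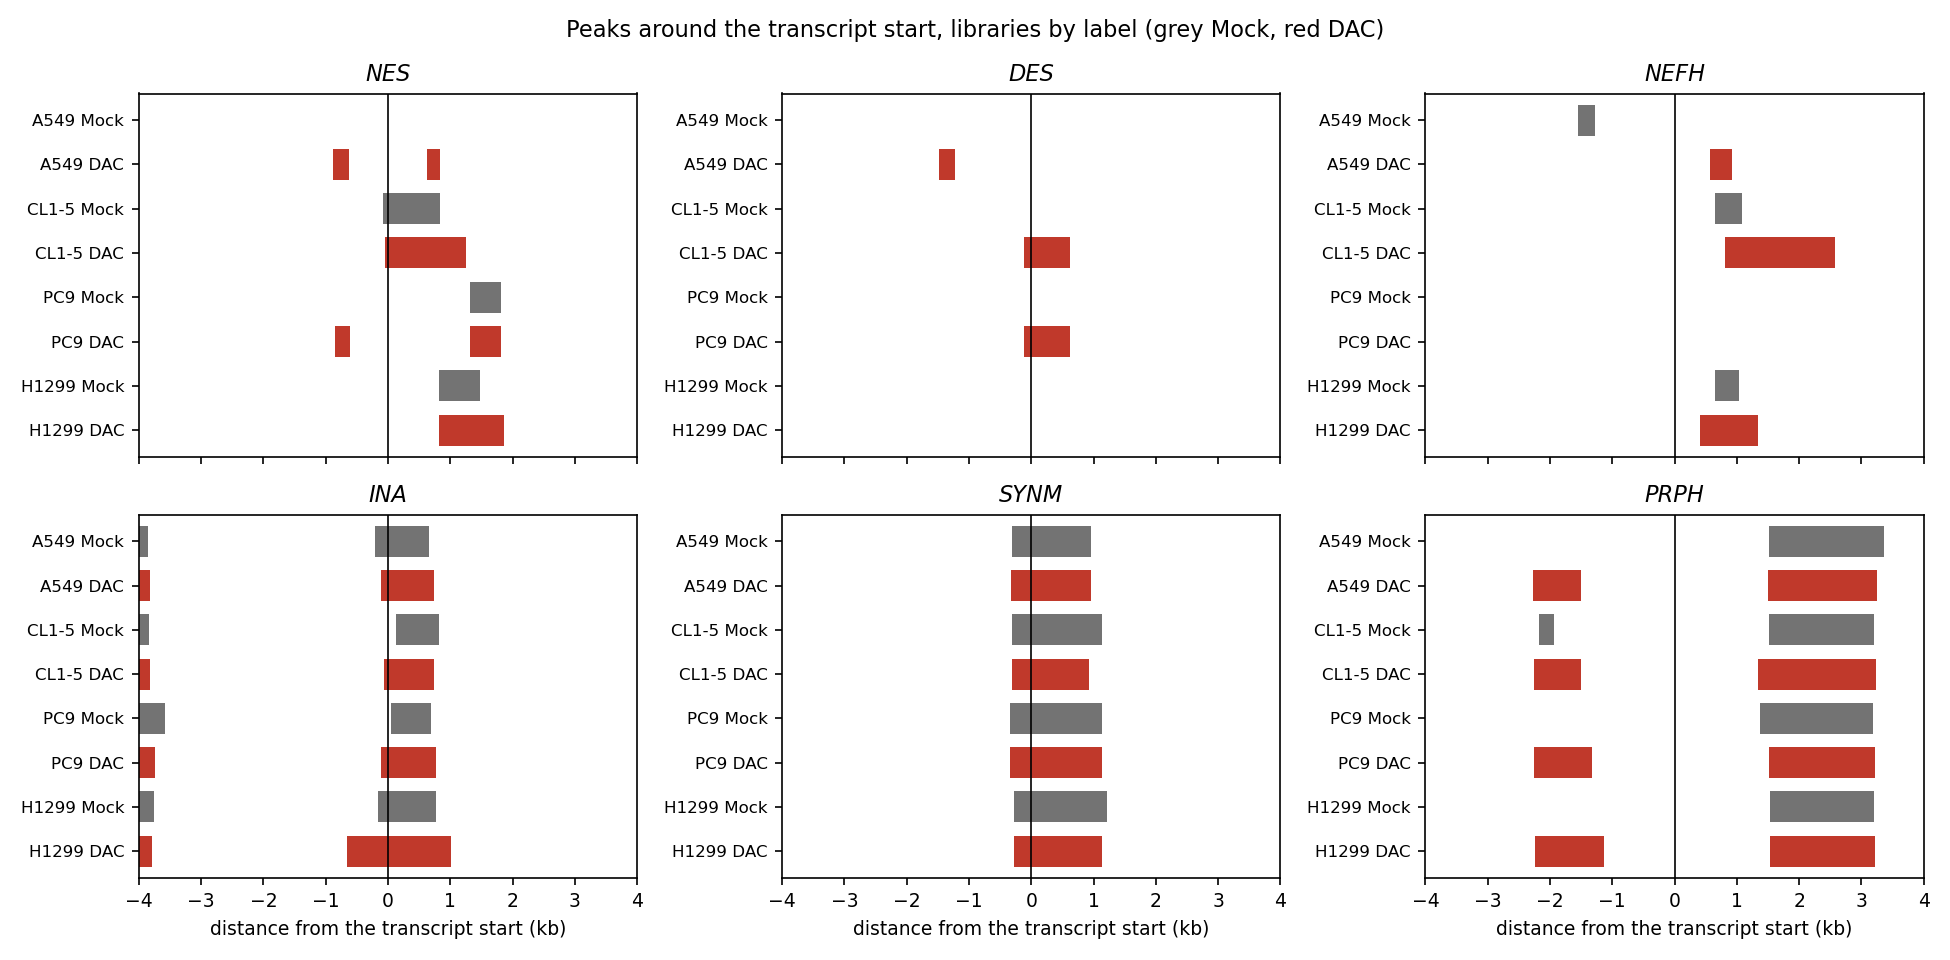
Position of the listed peaks of 6 genes from 4 kb before to 4 kb after the transcript start (vertical line), in the direction of transcription, with a row for each of the 8 lists, grey for Mock and red for DAC. SYNM has a peak over the start in each row, DES peaks are in 3 DAC rows and no Mock row, the upstream PRPH peak is in 4 DAC rows and 1 Mock row, and the peak ahead of NES is in the DAC rows of A549 and of the library labelled PC9.

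The number of the 10 genes with a promoter peak went from 7 in Mock to 9 after DAC in A549, from 6 to 7 in the pair labelled CL1-5, from 7 to 8 in that labelled PC9, and was 7 in both lists of H1299. The mean change was 1.00 ± 0.82 genes (SD over the 4 lines), with p = 0.25 in an exact permutation test that flips the sign of each line, two-sided. With 4 lines this test cannot give a p under 0.125. Over all genes that had no promoter peak in Mock, the share with one after DAC was 28.5% in A549, where DES and NES were 2 of 3 such genes among the 10, 21.9% in the pair labelled CL1-5 (DES, 1 of 4), 27.7% in that labelled PC9 (DES, 1 of 3) and 25.4% in H1299 (NEFM, 1 of 3). Of all genes with a peak in Mock, 4.03%, 3.24%, 3.63% and 4.18% had none after DAC in the same order, and among the 10 genes this was 1, NEFL in H1299. The DAC lists were longer in 4 of 4 pairs, by 0.36 ± 0.13 on the log2 scale (SD, n = 4 lines, exact sign-flip p = 0.125, the smallest it can give), and the peaks listed for the 10 genes at any position went from 34 to 47, 30 to 39, 34 to 39 and 25 to 29. With the same number of peaks in both lists of a line the mean change was 0.25 genes. The part of list length in the gained peaks was not tested.

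By rank, the mean percentile of the 10 genes went from 34.3 to 38.6 in A549, from 26.8 to 27.6 in the pair labelled CL1-5, from 32.1 to 33.3 in that labelled PC9 and from 35.5 to 35.0 in H1299, a mean change of 1.44 ± 2.07 percentile points (SD, n = 4 lines, exact sign-flip p = 0.25). Without the pairs labelled CL1-5 and PC9 it was 1.90 points, and the mean change in number was 1.00, over the 2 lines left. In those 2 lines VIM, PRPH, NEFH, INA and SYNM had a promoter peak in 2 of 2 Mock and 2 of 2 DAC lists, NES and NEFM in 1 and 2, DES in 0 and 1, NEFL in 2 and 1 and GFAP in 0 and 0. The upstream PRPH peak was in 0 of the 2 Mock and 2 of the 2 DAC lists, and the INA and SYNM peaks reached over the start in each of these lists.

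**Figure D5:**
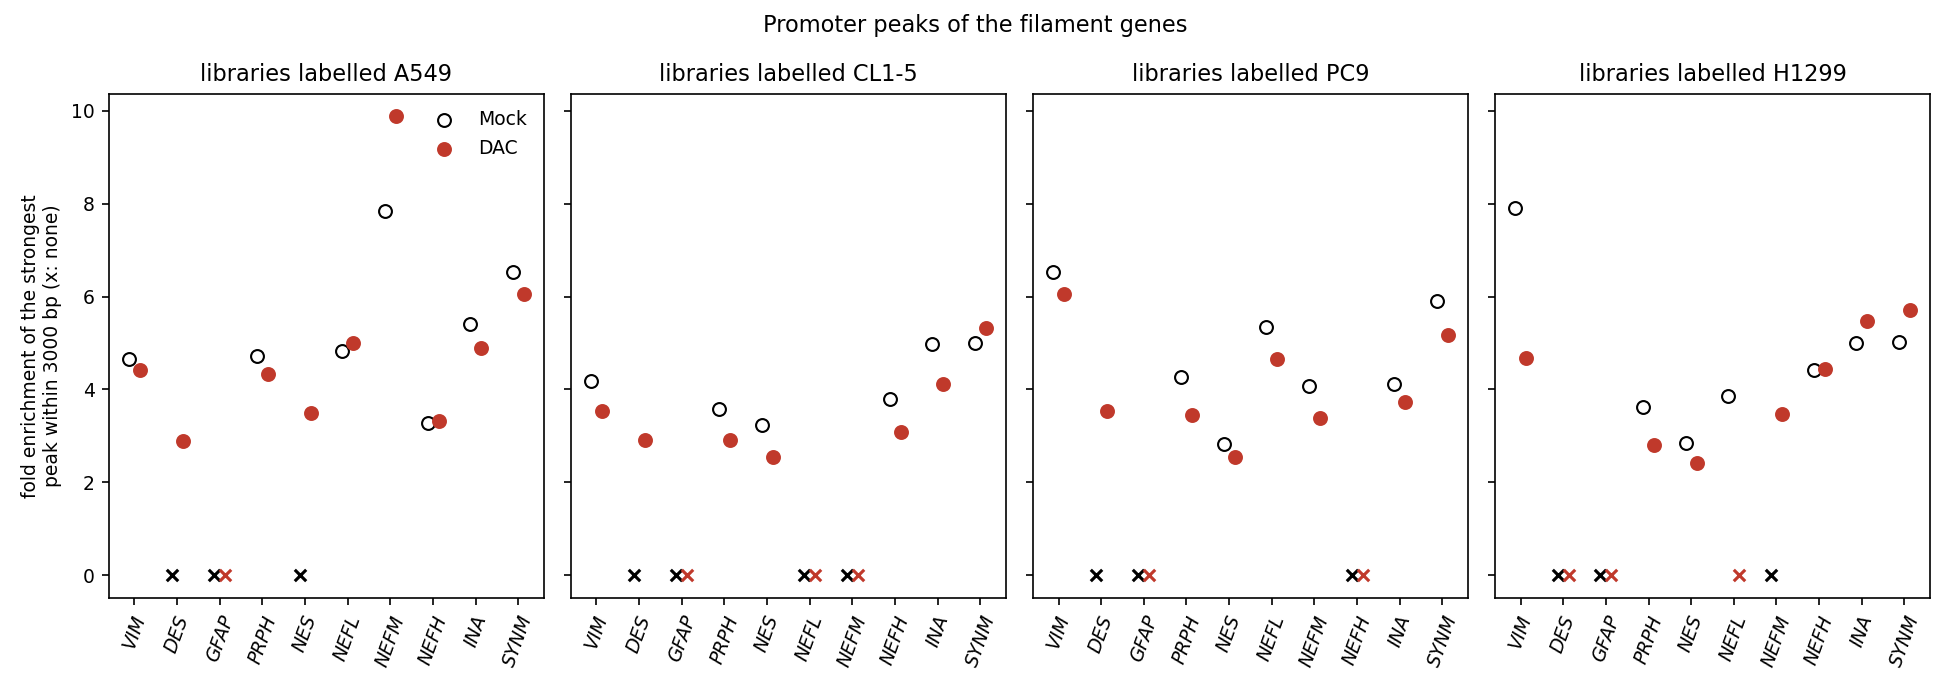
Fold enrichment of the strongest promoter peak of each gene in the Mock (open) and DAC (red) list of each pair, on a linear axis, with a cross at 0 where no peak was listed. DES has a cross in 4 Mock lists and a value between 2.89 and 3.53 in 3 DAC lists, GFAP has crosses only, and the value of NEFM in A549 after DAC is the highest shown.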

How the data were processed

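mRNA-seq was analysed in 12 libraries (6 lung cancer lines, Mock and DAC) and Omni-ATAC-seq in 8 libraries (4 lines), with 1 library per line and arm. Groups follow the labels. By the methods of the study, the authors trimmed the mRNA reads, mapped them with RSEM and bowtie2 on hg19 (the submitters' processing notes name TopHat2 2.1.1), counted them on GENCODE genes and deposited FPKM values made with DESeq2 1.24.0. Whether counting used strand is not given in the sources used here. The authors also deposited a normalized signal averaged over libraries, which served to recover reads, and the statistics of their own comparison (fold changes on the log2 scale with errors, a score, p-values), which were not used. The authors aligned the chromatin reads with BWA 0.7.17-r1188, removed duplicates with Picard 2.21.4, called broad peaks per library with MACS2 2.2.5 and annotated them with ChIPseeker 1.20.0. The deposited peak lists hold, for each peak, a score, its fold enrichment and −log10 values of p and q. The chromatin depth of each library is unknown here.

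Values worth up to 1000 reads were whole multiples of 1 read in each library, within 0.05 reads (100% of such values). Genes were kept at a mean FPKM of 0.1 or more (22603 genes), and log2(FPKM + 0.1) was fitted with limma 3.58.1 (R 4.3.3). The model held treatment and a block for each cell line, with the prior variance following intensity, and p-values had a Benjamini-Hochberg adjustment over all genes tested. Fold changes on this scale understate those of low genes. The Mock and DAC libraries of a line are paired by the cell line of the labels, and deviations from the arm means correlated at 0.731 to 0.900 within a line and at most 0.115 between lines. Differences between lines were tested with limma's F test over 12 libraries. The fit was tested on simulated data with known changes. Ratios within a line carry exact 95% counting intervals, and a gene was taken as undetected at 3 reads or fewer. Peak lists were compared over lines by flipping signs in an exact permutation test (two-sided). Software was Python 3.11.15, numpy 2.4.6, scipy 1.17.1, pandas 2.3.3, with matplotlib 3.10.9 for figures.

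The genes, the marker lists and the design were chosen with earlier results of these data known. The genes named are the 10 filament genes, any list gene past the adjusted threshold, the tested genes of each list with the highest and lowest fitted log2 fold change, the list gene with the highest Mock FPKM, genes overlapping or within 2000 bp of a filament gene's start, and the 3 genes most correlated with each filament gene of mean FPKM 1 or more. KRT8, KRT18, EPCAM, CDH2, SOX2, ACTA1, MYOD1, MYOG, MYF6 and genes at 3 reads or fewer were also named for their level. The alternatives were H1792 in the fit, no block, other pseudocounts (1 and 0.01), other filters (none, or a mean of 1), a common sum, quantile normalization, no trend, limma voom on reads, each line left out, a window of 1000 bp, peaks with a q-value under 0.01, equal numbers of peaks, and peaks placed by an annotation. S100B, SOX10 and MYF5 were not analysed here, and the counts and summed level of the leukocyte list are not reported here.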

Additional observations from a re-analysis of the deposited data

Results flagged for a closer look

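Of 30 sets of 6 values checked (each gene in Mock, after DAC and as the difference, on the log2(FPKM + 0.1) scale), 2 held a line whose gap to the nearest other line exceeded Dixon's 95% critical value. Chance flags about 1 in 20 sets. VIM in PC9 Mock was at 2.28, with the next line at 6.94 and the highest at 8.91. DES in H1299 Mock was at 0.12, with the next line at -2.30 and the lowest at -3.32. After DAC neither was past that limit.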

How the results depend on the processing

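In the 5-line comparison 27 genes passed the adjusted threshold upward. The number was 53 with H1792 included, 0 with a pseudocount of 1, 2 without a filter, 17 after quantile normalization, 6 without the trend and 199 by limma voom on reads, and 0 to 22 with a line left out (0 without A549 or CL1-5, 5 without CL1-0, 12 without PC9). Without the cell line block it was 10, and NES was then the 1 filament gene at an unadjusted p under 0.05. Of the 10 filament genes 0 passed the adjusted threshold in 15 of the 16 fits, and 1, GFAP, did by limma voom. GFAP was kept by the filter only through the DAC arm. The number of filament genes higher at an unadjusted p, 4, was 2 with a mean FPKM of at least 1, 2 after quantile normalization and 1 to 4 with a line left out. Over all genes it was 1825 of 22603 in the main fit, 913 of 13233 with a mean FPKM of at least 1 and 1130 of 22603 after quantile normalization. It was 1206 of 22168 without A549 and 1664 of 22392 without CL1-5. The 4 filament genes held INA in place of DES without PC9 and SYNM in place of NEFH without H1299, NES being the 1 left without A549 or CL1-5, where GFAP was no longer tested. Of all genes at an unadjusted p under 0.05, 64.7% were higher, 82.3% after rescaling to a common sum and 40.4% after quantile normalization. Fitted log2 differences that did not pass the threshold changed sign as follows. With a pseudocount of 1, PRPH was at -0.030 and NEFM at -0.043, and after quantile normalization PRPH was at -0.336 and NEFM at -0.175. With a line left out, PRPH ranged from -0.086 to 0.210, NEFM from -0.084 to 0.415, VIM from -0.479 to 0.033 (above 0 without H1299) and NEFL from -0.236 to 0.029 (above 0 without CL1-0). The cause was not tested. Pairs of gene and line at least 2-fold higher numbered 18 (0 lower), or 7 (0 lower) with a pseudocount of 1, whose construction damps low genes, and 26 (2 lower) with 0.01. For the 2 other pseudocounts no share of all genes was counted. The number of filament genes that differed between lines was 8 to 10 of 10 tested, and 7 of the 7 tested with a mean FPKM of at least 1. The mean change in promoter peaks kept its sign in each alternative (0.25 to 1.33 genes), as did that in rank (0.47 to 2.53 points). Depth limits DES, GFAP and PRPH, which had at most 139 reads.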
